A study of Bos taurus with 16 samples.

Results

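The 10 genes described here are adipocyte genes, whose products build, fill and coat the lipid droplet of a fat cell or are released by it. They are PPARG, CEBPA, LPL, FABP4, FASN, SCD, PLIN1, CIDEC, ADIPOQ and LEP, and all 10 were found by gene symbol among the 34109 genes listed for each library. The genes were selected on measured values, because 1 sirloin library, from treated replicate 4, stood apart in them. Its levels, and the diet difference in sirloin muscle that includes it, are therefore given as descriptions without a test. For the members, p-values are given only for comparisons without that library.

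Fat cells form when mesenchymal progenitors switch on PPARG and CEBPA, transcription factors that maintain each other and activate most other genes of the mature cell. A mature adipocyte takes up fatty acids released by lipoprotein lipase, makes more from acetyl-CoA, stores both as triglyceride in a droplet coated by perilipin and CIDE proteins, and secretes hormones such as adiponectin and leptin. In cattle the adipocytes that lie between muscle fibres make up marbling.

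Round and sirloin muscle were taken immediately after birth from 8 male Hanwoo calves, and 16 RNA-seq libraries were made, 1 per muscle and calf. The cows of the 4 control calves were fed at 100% of their requirement and those of the 4 treated calves at 150% during mid to late pregnancy. Each muscle thus had 4 control and 4 treated replicates, and the replicates of a diet carry the same numbers in both muscles. The study asked whether maternal overfeeding changes muscle development and marbling genes in the newborn. The replicate number within a diet was taken to mark the calf. The labels name no other treatment, allele or agent.

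Library totals ranged from 44473011 to 72446933 counts. Levels within a gene are given as CPM, which are counts relative to the library total scaled by edgeR's TMM factors, and levels between genes as the deposited TPM, which is corrected for transcript length. In sirloin treated replicate 4 the markers of skeletal muscle fibres summed to 92356 CPM, within the range of 83935 to 171811 CPM of the other 7 sirloin libraries, so the labelled tissue was visible in its fibre markers. The sum lay below each of the 4 sirloin controls, 9 of the 10 fibre genes were below the median of the other 7 libraries, and TTN, MYH7 and TNNT1, of the giant sarcomere protein and slow fibres, were the lowest of all 16. Round control replicate 2 stood apart in other genes, with the highest of the 8 round values in 6 of 6 fibroblast and 5 of 6 tendon markers. Because these are bulk tissue samples, fewer cells of a type and less RNA per cell cannot be told apart.

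**Figure D1:**
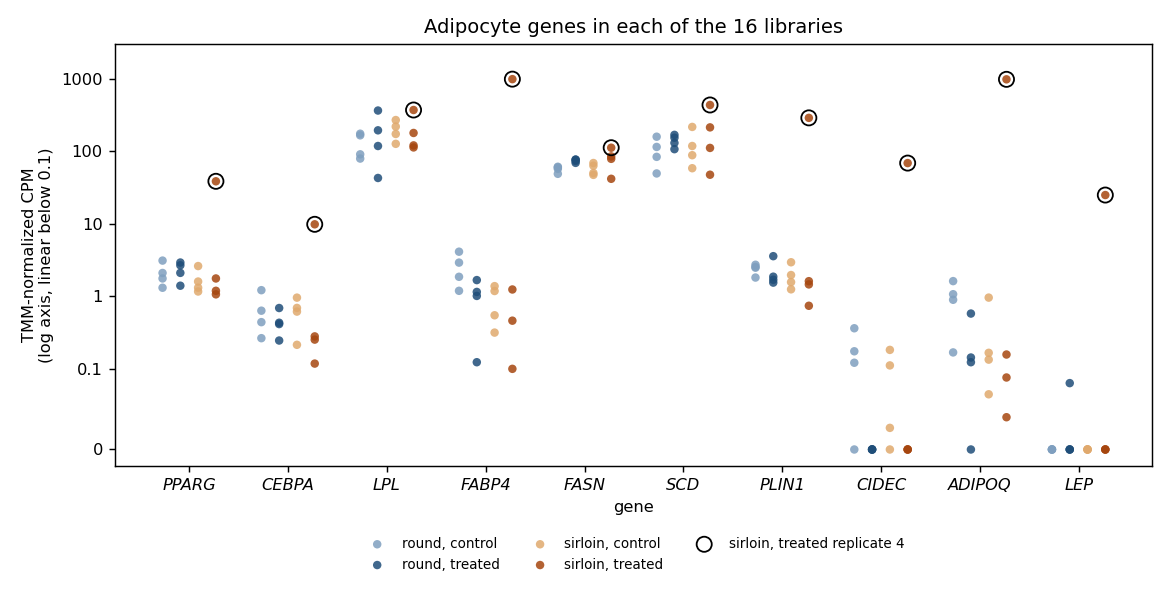
Each point is the TMM-normalized CPM (log axis, linear below 0.1) of 1 library, for the 10 adipocyte genes along the horizontal axis, coloured by muscle and diet, and the open circle marks sirloin treated replicate 4. That library sits at 983 CPM for FABP4 and 977 CPM for ADIPOQ, while no other library exceeds 4.12 and 1.62 CPM, and for LPL it lies beside round treated replicate 2.

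Of the regulators, PPARG, the nuclear receptor that starts fat cell differentiation, lay at 3.10, 1.76, 1.31 and 2.1 CPM in round control replicates 1 to 4 and at 2.1, 1.40, 2.92 and 2.67 CPM in round treated replicates 1 to 4. In sirloin it was at 2.61, 1.31, 1.16 and 1.60 CPM in the controls and at 1.06, 1.76, 1.19 and 38.4 CPM in the treated calves. The other 15 libraries thus spanned a narrow band in which the diets overlapped in both muscles, and the sirloin library of treated replicate 4 was 12.4 times the next highest library. CEBPA, which encodes a CCAAT-binding factor that sustains PPARG, reached 0.265, 0.440, 1.21 and 0.633 CPM in round controls and 0.414, 0.432, 0.246 and 0.689 CPM in round treated replicates. Its sirloin levels were 0.692, 0.214, 0.616 and 0.958 CPM in controls and 0.118, 0.280, 0.253 and 9.82 CPM in treated replicates. Treated replicates 1 to 3 had 6, 14 and 17 counts of CEBPA, near the lower end of the other libraries, and overlapped the controls through control replicate 2.

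LPL, the lipase that frees fatty acids from circulating lipoproteins, is also made by muscle fibres. Round controls held 90.5, 79.1, 174 and 165 CPM of it and round treated replicates 42.7, 363, 194 and 118 CPM. Sirloin controls held 173, 126, 268 and 218 CPM and sirloin treated replicates 113, 120, 178 and 369 CPM. Here the sirloin library of treated replicate 4 was only 1.02 times round treated replicate 2, and on the TPM scale round treated replicate 2 was the higher, at 189 against 185 TPM.

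FABP4, the fatty acid carrier of the adipocyte cytoplasm, which capillary endothelial cells also make, was at 2.91, 4.12, 1.19 and 1.86 CPM in round controls and at 1.67, 0.123, 1.01 and 1.15 CPM in round treated replicates. Sirloin controls lay at 1.18, 1.38, 0.316 and 0.548 CPM and sirloin treated replicates at 1.24, 0.10, 0.461 and 983 CPM. The 15 libraries other than the last held 5 to 318 counts of FABP4, whereas the last held 67096, which was 98.4% of all FABP4 counts of the series. Treated replicate 2 had the lowest FABP4 level of the treated calves in both muscles.

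The synthesis genes were well measured in every library. FASN encodes fatty acid synthase, which builds palmitate, and lay at 59.8, 61.0, 48.7 and 57.0 CPM in round controls and at 76.3, 76.6, 69.0 and 73.3 CPM in round treated replicates. The 4 treated round libraries all lay above the 4 controls. In sirloin, FASN was at 63.0, 49.999, 47.1 and 68.7 CPM in controls and at 41.6, 84.7, 78.4 and 112 CPM in treated replicates, and the groups overlapped. SCD, the desaturase that turns stearate into oleate, the main fatty acid of beef fat, was at 114, 158, 83.5 and 49.3 CPM in round controls and at 107, 130, 153 and 168 CPM in round treated replicates. Its sirloin levels were 88.0, 216, 118 and 58.2 CPM in controls and 213, 47.4, 111 and 433 CPM in treated replicates. SCD spread from 47.4 to 213 CPM within sirloin treated replicates 1 to 3, and sirloin treated replicate 4 was 2.01 times the next highest library, sirloin control replicate 2.

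PLIN1, the perilipin that coats the droplet and gates lipolysis, was at 2.48, 2.54, 2.72 and 1.81 CPM in round controls and at 1.86, 1.54, 1.69 and 3.57 CPM in round treated replicates. It lay at 2.94, 1.57, 1.25 and 1.96 CPM in sirloin controls and at 1.62, 0.740, 1.46 and 288 CPM in sirloin treated replicates. Both muscles of treated calf 4 thus had the highest PLIN1 level of their muscle, but the round library exceeded the next round library only from 2.72 to 3.57 CPM. CIDEC, which fuses small droplets into a large one, was found with 28, 5 and 8 counts in round control replicates 2, 3 and 4 and with 5, 2 and 8 counts in sirloin control replicates 1, 2 and 4. Outside the sirloin library of treated replicate 4, with 4676 counts or 68.5 CPM, no treated library of either muscle held a count of CIDEC.

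Of the secreted hormones, ADIPOQ, which encodes adiponectin, was at 0.168, 1.62, 1.07 and 0.895 CPM in round controls and at 0.143, 0.123, 0.578 and 0 CPM in round treated replicates. In sirloin it was at 0.959, 0.134, 0.166 and 0.0685 CPM in controls and at 0.158, 0.0400, 0.0893 and 977 CPM in treated replicates. ADIPOQ counts in the other 15 libraries ran from 0 to 125, the 0 belonging to the round library of the same treated calf 4, against 66692 in its sirloin library. LEP, the satiety hormone leptin, had 1696 counts in sirloin treated replicate 4, 4 counts in round treated replicate 2 and 0 in the other 14 libraries. Pooled, 0 counts in the other 7 sirloin libraries allow a level of up to 0.00767 CPM, so sirloin treated replicate 4, at 24.9 CPM, was at least 3241-fold higher in LEP.

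Per transcript length the order of the members differed between that library and the rest. Over the other 15 libraries the median TPM was 68.3 for LPL, 36.9 for SCD, 13.3 for FASN, 2.89 for FABP4, 1.69 for PPARG, 0.889 for PLIN1, 0.630 for CEBPA and 0.0879 for ADIPOQ, and 0 for CIDEC and LEP. Neighbours in this order overlapped in their ranges over libraries, but the lowest FASN value of 9.08 TPM lay above the highest PPARG value of 2.67 TPM. In sirloin treated replicate 4 the order was FABP4 at 2825 TPM, ADIPOQ at 678, LPL at 185, PLIN1 at 160, SCD at 153, CIDEC at 99.0, PPARG at 37.8, FASN at 24.3, LEP at 14.9 and CEBPA at 14.3 TPM. FABP4, ADIPOQ and PLIN1 thus lay above SCD and FASN there, whereas CIDEC lay below SCD and LEP below both. The members together took 0.370% of that library's counts and between 0.0232% and 0.0595% of the counts of the others.

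Set against the other sirloin libraries, treated replicate 4 was highest in 10 of 10 members, and in 10 of 10 against all 15 libraries by CPM and 9 of 10 by TPM. Relative to the median of the other 7 sirloin libraries it was 7290 times higher in ADIPOQ, 1795 times in FABP4 and 183 times in PLIN1, which encode the abundant secreted, carrier and droplet proteins. The regulators stood 35.0 times (CEBPA) and 29.3 times (PPARG) higher. The synthesis and uptake genes stood 3.91 (SCD), 2.14 (LPL) and 1.77 times (FASN) higher. For CIDEC, with 15 counts over the other 7 libraries, the ratio to their mean was 1495. These ratios changed with the scale, for example from 1316 to 1406 for FABP4 against the mean of the other 7 when TPM replaced CPM.

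Among the 10843 genes that reached 5 CPM in any library, 67, or 0.618%, were at least 8 times higher in sirloin treated replicate 4 than in each other library. The same count was at most 8 in any other library, for round control replicate 2, and 0 in 12 libraries. Of the 67 genes, 7 were members, 9 came from 7 further adipocyte lists with 72 genes, and none came from the 9 lists of other cell types with 59 genes. FASN, SCD and LPL were the 3 members outside the 67. The members were selected on this library, so nothing about them is read from this count.

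Among the other adipocyte genes, UCP1, the uncoupling protein that makes heat in brown adipocytes, reached 778 CPM in sirloin treated replicate 4 and at most 2.07 CPM elsewhere. Of the rest of the brown adipocyte list, none was highest in that library: DIO2, the deiodinase that activates thyroid hormone, ranked 14 of 16 there, PPARA 16 and COX7A1 9, ELOVL3 was at 0 counts there, and CKMT1A was at 0 counts in every library. Brown adipocyte genes held in other lists, chosen here after their values were seen, were higher by less than UCP1. EBF2, an early factor of brown precursors, was at 7.09 against at most 5.10 CPM elsewhere, and CIDEA, a droplet protein of brown fat, at 2.81 against 1.56 CPM. PRDM16, a regulator of brown fat identity, was at 2.83 CPM, the highest of the sirloin libraries and below the 3.66 CPM of round treated replicate 2. TRARG1, also known as TUSC5, a membrane protein of insulin-responsive glucose transport, was at 166 CPM against a maximum of 0.350 CPM in the other libraries. ADIG, an adipocyte membrane protein, was at 44.9 CPM and at least 5854-fold above a floor of 3 counts over the other 7 sirloin libraries, which held 3 counts. The beta-3 adrenergic receptor ADRB3, the trigger of lipolysis, was at 6.10 CPM against at most 0.0823, and LGALS12, a galectin of the lipid droplet, at 1.07 CPM against 0 counts elsewhere.

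Further genes of triglyceride synthesis and storage were high in the same library. DGAT2, which adds the last fatty acid of triglyceride, was at 217 CPM against 11.3 in the next library, and ELOVL6, which elongates palmitate, at 58.4 against 5.54 CPM. ELOVL5, an elongase of unsaturated fatty acids, was at 69.9 against 12.2 CPM, and THRSP, a nuclear protein induced with lipogenesis, at 15.2 against 0.207 CPM. G0S2, the inhibitor of adipose triglyceride lipase, was at 32.7 against 1.22 CPM. In all, 13 of 16 synthesis genes, 4 of 12 droplet and lipolysis genes, 8 of 12 secreted and surface genes, 3 of 8 uptake genes and 4 of 12 further adipogenic regulators were highest of the 8 sirloin libraries in treated replicate 4, as were 18.1% of all genes with counts in sirloin. Of 6 progenitor genes 1 was, DPP4, a surface peptidase of early progenitors, at 14.7 against at most 1.40 CPM.

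**Figure D2:**
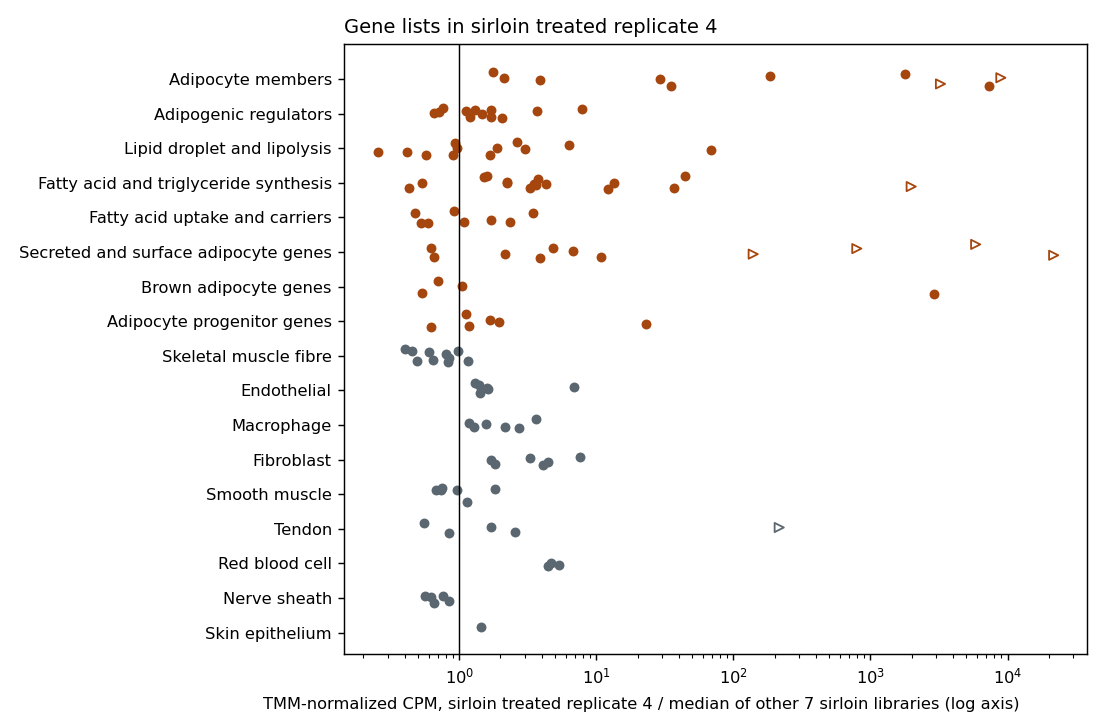
Each point is 1 gene, placed at its TMM-normalized CPM in sirloin treated replicate 4 divided by the median of the other 7 sirloin libraries (log axis), in rows by gene list, with adipocyte lists in orange and lists of other cell types in grey. Open triangles mark lower bounds where that median was 0, taken against 3 counts over the 7 libraries, and genes below 1 CPM in all 8 sirloin libraries are left out. UCP1 lies at 2906, the endothelial genes lie at 6.93 or lower, and the triangle in the tendon row is COMP.

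Markers of other cell types in that library were measured beside these values, and their part in the result was not tested. The 6 endothelial markers summed to 313 CPM against 149 to 245 CPM in the other 7 sirloin libraries, and 5 of 6 were highest there, CLDN5, a tight junction protein, at 58.7 against at most 11.7 CPM. Over all 16 libraries CLDN5 was second highest in round treated replicate 4, at 32.0 CPM. The 6 fibroblast markers summed to 1743 CPM against 439 to 1487, with 3 of 6 highest of the sirloin libraries, below the 5704 CPM of round control replicate 2. Red blood cell markers summed to 12.4 CPM against 1.71 to 7.05, with 4 of 7 highest and SLC4A1 at 0 everywhere. Macrophage markers were within the range, at 37.6 against 8.79 to 63.7 CPM, and so were nerve sheath markers, at 20.3 against 19.6 to 53.8, smooth muscle markers, at 5789 against 5409 to 11623, and skin epithelium genes, at 35.4 against 11.7 to 58.7 CPM. Tendon markers summed to 34.9 CPM, below the 42.6 to 78.6 CPM of the other 7, although COMP, a cartilage and tendon matrix protein, was the highest of the sirloin libraries at 1.66 CPM and lower than in round control replicate 2, at 2.73 CPM. Of the skin genes KRT5, KRT14, KRT1 and DSG3 were at 0 counts in this library.

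The round library of the same calf held 0 counts of ADIPOQ, CIDEC and LEP and ranked 6 of 8 in FABP4. It was the highest of the 8 round libraries in 2 of 10 members, PLIN1 and SCD, against 9.68% of all genes tested in round muscle. Round control replicate 2 was the highest in 3 of 10, against 17.9% of all genes.

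**Figure D3:**
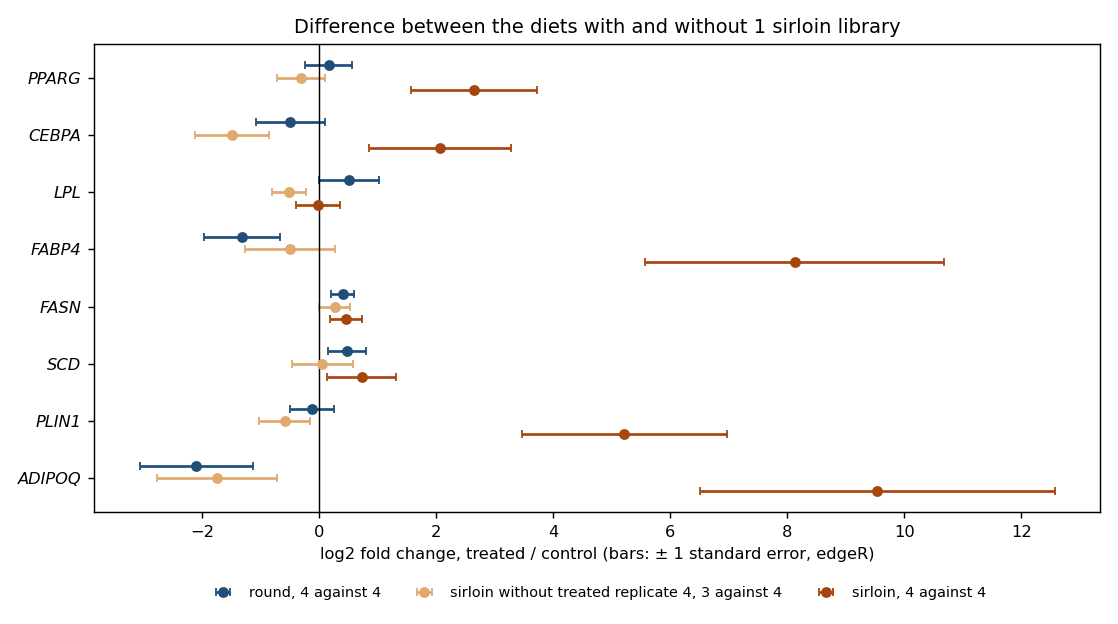
Points are edgeR log2 fold changes of treated over control with bars of 1 standard error, for round muscle (4 against 4), for sirloin without treated replicate 4 (3 against 4) and for sirloin with it (4 against 4); CIDEC and LEP are left out because a group had 0 counts. For ADIPOQ the sirloin value moves from -1.75 to 9.53 when that library is included, while LPL and FASN stay within 1 unit of 0 in each comparison.

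The first comparison asked whether the members differed between calves of overfed and control cows in round muscle. In edgeR's quasi-likelihood test 0 of 10 members passed an adjusted p of 0.05, against 0.0185% of the 21677 genes tested, which is 4 genes. At an unadjusted p below 0.05 the count was 1 of 10, CIDEC, against 4.41% of all genes, and DESeq2 and limma-voom also called 0 members. The groups did not overlap in 1 of 10 members, FASN, against 1.76% of all genes. Over the 10 members the median log2 fold change was 0.02, as it was over all genes tested. Of the members 5 were higher and 5 lower in level, with LEP among the higher on 4 counts in 1 library.

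Of the regulators, PPARG differed by 0.16 ± 0.39 (log2 fold change, treated over control, ± SE, n = 4 and 4) in round muscle and CEBPA by -0.49 ± 0.59. The 95% intervals, from -0.70 to 1.02 and from -1.78 to 0.79, spanned 0 for both genes. FASN was at 56.6 ± 5.52 CPM (SD, n = 4) in controls and 73.8 ± 3.54 CPM (SD, n = 4) in treated replicates, a log2 fold change of 0.40 ± 0.20 with an edgeR adjusted p of 0.864. SCD gave 0.48 ± 0.33 and LPL 0.51 ± 0.52, and the LPL value became -0.12 without round treated replicate 2, its highest round library. Neither synthesis nor uptake genes passed the test.

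The carrier, droplet and hormone genes had fewer counts and wider errors. FABP4 gave -1.32 ± 0.65 on the log2 scale in round muscle, from 2.52 ± 1.28 CPM (SD, n = 4) in controls to 0.989 ± 0.643 CPM (SD, n = 4), and ADIPOQ gave -2.101 ± 0.97, each with an edgeR adjusted p of 0.864. Leaving out 1 round library moved ADIPOQ between -3.34, without treated replicate 3, and -1.73, without treated replicate 4, and FABP4 between -1.71 and -0.96. PLIN1 gave -0.12 ± 0.38 with an interval from -0.94 to 0.71. CIDEC had 41 counts over the 4 round controls and 0 over the 4 treated libraries, with an edgeR p of 0.00662 and an adjusted p of 0.864. The measured control level was 15.2-fold above a ceiling of 3 pooled counts in the treated group, or 7.70-fold without round control replicate 2. LEP, with 4 counts in 1 treated library and 0 in the others, gave no usable fold. Markers of other cells also differed in level between the round groups: the 6 fibroblast markers had a median log2 fold change of -0.92, with 0 called, and summed to between 880 and 5704 CPM in controls and between 530 and 1371 CPM in treated libraries. The list medians were -1.83 for tendon, 1.48 for red blood cell and 0.55 for nerve sheath markers, also with 0 called in edgeR. DESeq2 called the tendon marker TNMD (-7.38 ± 1.59, DESeq2 adjusted p = 0.00321). It also called the smooth muscle marker CNN1 (-1.78 ± 0.32, DESeq2 adjusted p = 4.47e-05). The part of these cells in the values of the members was not tested.

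The other adipocyte lists likewise held no gene past the adjusted threshold in round muscle. At an unadjusted p below 0.05 the fatty acid and triglyceride synthesis list had 2 of 16 genes higher, the droplet and lipolysis list 1 of 12 higher, the uptake list 1 of 8 higher, and the secreted and surface list 1 higher and 1 lower of 10 tested. Regulators, brown adipocyte and progenitor genes had 0 of 12, 0 of 5 and 0 of 6. The list medians of the log2 fold change ran from -0.11 for the secreted and surface genes to 0.25 for the droplet and lipolysis genes, beside 0.02 over all genes.

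In sirloin muscle with all 8 libraries, given as a description, the highest fitted log2 fold change was that of LEP, which had no counts in controls. It was 11.45 ± 3.97 (± SE, n = 4 and 4). ADIPOQ followed at 9.53 ± 3.03, FABP4 at 8.12 ± 2.55, CIDEC at 7.82 ± 2.68 and PLIN1 at 5.21 ± 1.75. PPARG gave 2.64 ± 1.08 and CEBPA 2.06 ± 1.21, and SCD, FASN and LPL gave 0.73, 0.46 and -0.02. The values of LEP, ADIPOQ, FABP4, CIDEC, PLIN1, PPARG and CEBPA rested on treated replicate 4, and LEP had no counts in sirloin without it. Without it, ADIPOQ was at -1.75 ± 1.02, FABP4 at -0.50 ± 0.77, PLIN1 at -0.59 ± 0.43, PPARG at -0.31 ± 0.41 and CEBPA at -1.49 ± 0.63 (± SE, n = 3 and 4), so that all 5, and CIDEC, changed sign. SCD, FASN and LPL were at 0.05 ± 0.52, 0.26 ± 0.27 and -0.51 ± 0.29. With 1 more library left out, ADIPOQ moved between -2.27, without treated replicate 1, and -0.36, without control replicate 1. FABP4 moved between -1.58, without treated replicate 1, and -0.0069, without treated replicate 2.

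The genes were selected because treated replicate 4 stood apart from these 7 sirloin libraries. Earlier results of these data were known at the choice, so it was not shown to be independent of the diets among the 7. On these 7 libraries, 0 of the 9 members with counts passed the adjusted threshold in edgeR, and limma-voom and DESeq2 also called 0 of them. The share over all 21349 genes was 0%. Unadjusted p-values below 0.05 were found for 2 of 9 members, CEBPA and CIDEC, against 3.14% of all genes. Both had an edgeR adjusted p of 0.955. No member of the 9 had groups that did not overlap, against 3.78% of all genes. CIDEC had 15 counts over the 4 controls and 0 over treated replicates 1 to 3. The measured control level was 3.76-fold above a ceiling of 3 pooled counts in those treated libraries. The median over the 9 members was -0.51 on the log2 scale, beside 0.00 over all genes.

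The 95% intervals on these 7 libraries show what 3 against 4 samples could resolve. For LPL the interval ran from -1.17 to 0.14, for FASN from -0.34 to 0.87, for PPARG from -1.21 to 0.59 and for PLIN1 from -1.55 to 0.38 on the log2 scale. ADIPOQ, with 2 to 8 counts in treated replicates 1 to 3 and 3 to 43 in controls, ran from -4.02 to 0.52, and FABP4 from -2.22 to 1.22. Among the other adipocyte lists 0 genes passed the adjusted threshold in edgeR. At an unadjusted p below 0.05 there was 1 gene higher in each of the synthesis, secreted and surface, and progenitor lists. Macrophage markers were higher in level in treated replicates 1 to 3, with a median log2 fold change of 1.28 over 6 genes and 0 called, and fibroblast markers had a median of -0.69. Tendon markers had a median of -1.38, with 5 of 6 lower in level, and red blood cell markers one of 0.98, with 5 of 5 higher in level, again with 0 called. Their part in the values of the members was not tested.

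Round and sirloin muscle were then compared on the 7 calves other than treated calf 4. The members were selected because treated replicate 4 stood apart from the sirloin libraries of these 7 calves. The choice was therefore not shown to be independent of low member levels in sirloin, and the calls of members below carry this limit. Without regard to the calf, 0 of 10 members passed an adjusted p of 0.05 in edgeR, against 0.0842% of 22567 genes, and DESeq2 and limma-voom called 0 members. ADIPOQ, at -1.52 ± 0.66 (log2, sirloin over round, ± SE), was the only member with an unadjusted p below 0.05, 1 of 10 against 6.56% of all genes. Its edgeR adjusted p was 0.696. When the calf was included as a block, since both muscles came from the same animals, 1 of 10 members was called, against 1.43% of all genes.

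That member was FABP4, lower in sirloin by a log2 fold change of -1.15 ± 0.20, or 0.452-fold (edgeR with calf block, adjusted p = 0.0265). Control calves 1 to 4 went from 2.91, 4.12, 1.19 and 1.86 CPM in round to 1.18, 1.38, 0.316 and 0.548 CPM in sirloin. Treated calves 1 to 3 went from 1.67, 0.123 and 1.01 to 1.24, 0.10 and 0.461 CPM. FABP4 was lower in the sirloin library in 7 of 7 calves, in treated calf 2 by 5 against 6 counts. Without each calf in turn the value stayed between -1.25 and -1.01, and the adjusted p was between 0.0293 and 0.147, above 0.05 without control calf 2, 3 or 4 (0.0785, 0.0942 and 0.0724) or treated calf 3 (0.147).

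Of the other members, PPARG, ADIPOQ, PLIN1 and CEBPA were lower in sirloin in most of these calves, and FASN, SCD and LPL in fewer. None of them passed the test. The share of all genes lower in as many calves was not counted, so these numbers of calves, and that of FABP4, are a description. PPARG was lower in 6 of 7 calves, with -0.48 ± 0.21 under the block (edgeR, adjusted p = 0.335), and ADIPOQ in 5 of 7, with -1.73 ± 0.73 (edgeR, adjusted p = 0.313). PLIN1 was lower in 5 of 7, with -0.41 ± 0.21, CEBPA in 4 of 7, FASN in 3 of 7, SCD in 3 of 7 and LPL in 2 of 7. CIDEC and LEP had too few counts for an estimate. With the same block, FABP5, another fatty acid carrier, was lower in sirloin (-0.63 ± 0.13, edgeR adjusted p = 0.0441), as was CAV1, the caveolin of endothelial cells and adipocytes (-0.69 ± 0.15, edgeR adjusted p = 0.0442), whereas LIPE, hormone-sensitive lipase, was higher (0.89 ± 0.14, edgeR adjusted p = 0.0165).

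MLXIPL, the carbohydrate-responsive regulator of lipogenesis, was likewise higher in sirloin (1.49 ± 0.19, edgeR adjusted p = 0.00597), and DIO2 lower (-1.35 ± 0.23, edgeR adjusted p = 0.0235). Of the markers of other cells, the fibroblast collagens COL1A1, COL1A2 and COL3A1 were lower in sirloin under the block, with a median log2 fold change of -1.005 over the 6 fibroblast markers, and so were TAGLN and ACTA2 of the smooth muscle markers. The 6 endothelial markers all had negative values, with a median of -0.26 and 0 called. The part of these cells in the FABP4 value was not tested.

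**Figure D4:**
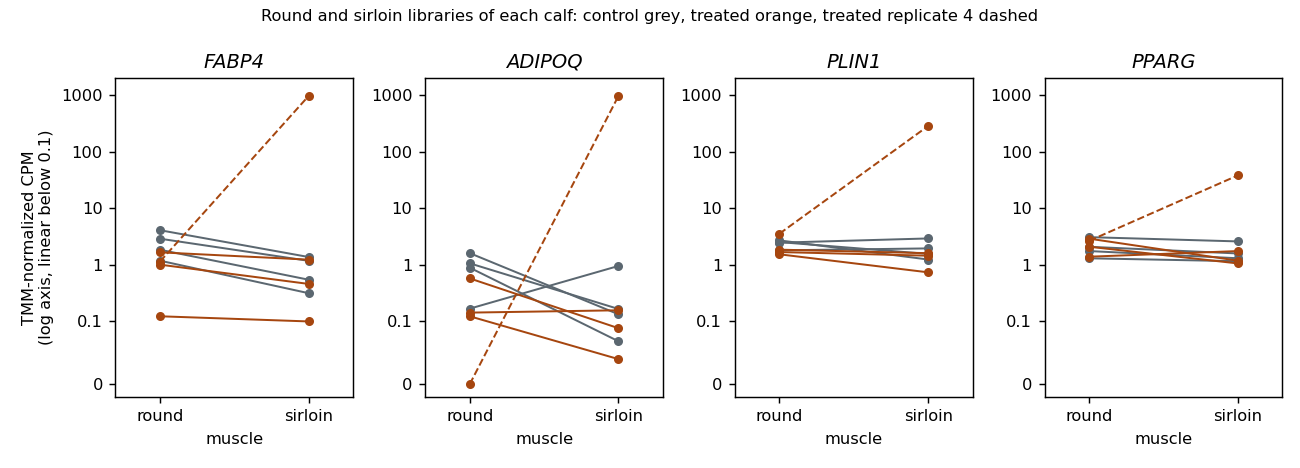
Each line joins the TMM-normalized CPM (log axis, linear below 0.1) of a calf's round and sirloin libraries for FABP4, ADIPOQ, PLIN1 and PPARG, with control calves in grey, treated calves in orange and treated replicate 4 dashed. FABP4 is lower in sirloin in the 7 solid lines, and the dashed line ends at 983 CPM.

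Whether the diet difference itself differed between the muscles was tested as an interaction on the same 14 libraries. In edgeR 0 of 10 members passed, against 0% of all genes, and at an unadjusted p below 0.05 the count was also 0, against 2.1%. DESeq2 and limma-voom called 0 genes in all. LPL had the interaction value farthest from 0 in relation to its error, -1.14 ± 0.71 with an interval from -2.65 to 0.37. With the calf block the FABP4 interaction was 0.94 ± 0.41, with an unadjusted edgeR p of 0.0401 and an adjusted p of 1.00.

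The genes whose pattern across libraries was most like that of the members were ranked by the correlation of their log2 CPM with the mean of 8 standardised members, over 16 libraries and 11276 genes. BPIFA2A and SGK2, a serum-regulated kinase, led with a Pearson r of 0.970 and 0.963, followed by PDE3B, the phosphodiesterase through which insulin restrains lipolysis, with 0.951. SCUBE3, TGM5 and QPRT had 0.944, 0.944 and 0.943, ECHDC1 0.941 and PRLR, the prolactin receptor, 0.933. The 16 points share 1 library that is far from the rest. Without sirloin treated replicate 4 the r over 15 libraries was 0.750 for ECHDC1, 0.398 for PDE3B and 0.191 for QPRT. For the other 5 genes the median over those libraries was 0 CPM, and BPIFA2A had no counts in any of them, so their r, from -0.391 to 0.256, holds little or nothing of expression. ECHDC1 was at 155 CPM in that library and at 41.7 CPM or less in the others.

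The members also resembled each other less without that library. They were selected because it stood apart in them, so this fall follows from the choice and is only a description. Between FABP4 and PLIN1 the Pearson r of log2 CPM was 0.936 over 16 libraries and 0.686 over 15, and between FABP4 and ADIPOQ 0.891 and 0.504. PPARG and CEBPA, at 0.768 over 16 libraries, were at 0.116 over 15. FABP4 and LPL were at 0.111 over 16 and at -0.606 over 15, the libraries with more LPL holding less FABP4. These values describe libraries that include both muscles of each calf, so the points are not independent.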

How the data were processed

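RNA-seq of 16 libraries was analysed. For the authors' own steps the study's methods name Trimmomatic for trimming, HISAT2 and Bowtie2 for alignment and StringTie for quantification, whereas the labels name STAR, featureCounts and the ARS-UCD1.2 build. The methods name rRNA and globin removal, the labels poly(A) selection. The authors deposited raw read counts per gene, used here for all tests, and normalized values labelled TPM, which have nearly the same total in each library. Tables of the authors' fold changes and p-values were not used. Gene identifiers were paired with symbols from RefSeq, which matched 30762 of 34109. No sequence or coordinate is given, because the reference table is of another build.

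The main test was edgeR 4.0.16 (R 4.3.3) with TMM factors, glmQLFit and glmQLFTest, two-sided, without covariates, on genes with at least 1 count, adjusted by the Benjamini-Hochberg method over all of them. A standard error is the log2 fold change divided by the square root of F. Replicates are different calves. Where a group had 0 counts, 3 counts over its summed libraries stood in. This bounds the counting error of that group only, with the level of the other group taken as measured. The steps were tested on simulated data.

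The members and the lists were chosen with earlier results of these data known. Named genes were the members, from the other lists the 12 with the largest ratios in sirloin treated replicate 4 and those past an adjusted p of 0.05, and the 8 outside the lists most correlated with the members. The other lists were adipogenic regulators, droplet and lipolysis, fatty acid and triglyceride synthesis, uptake and carriers, secreted and surface, brown adipocyte and progenitor genes, and muscle fibre, endothelial, macrophage, fibroblast, smooth muscle, tendon, red blood cell, nerve sheath and skin epithelium genes.

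Deviations from group means correlated between the muscles of a calf (0.250 to 0.595, n = 8) more than between muscles of different calves (-0.342 to 0.281), so the calf, which the replicate number marks within a diet, pairs the muscles. Across diets, equal numbers did not pair (-0.154 to 0.188). Alternatives were DESeq2 1.42.0, limma-voom and limma 3.58.1 on log2(TPM + 0.1) and log2(TPM + 1), replicate blocks, filters, other scales and leaving out libraries.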

Additional observations from a re-analysis of the deposited data

Results flagged for a closer look

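In 10 of 40 groups of 4 libraries, the highest library lay farther from the other 3 than Dixon's test allows at the 95% level. Of the 10, 7 were for sirloin treated replicate 4: PPARG at 38.4, CEBPA at 9.82, FABP4 at 983, ADIPOQ at 977, PLIN1 at 288, CIDEC at 68.5 and LEP at 24.9 CPM. This is the library on which the genes were selected, so the 7 are a description. In groups of 4 measured values chance flags about 1 in 20, but the 10 are not read against this, because groups at 0 throughout cannot be flagged and a group with 1 value above 0, as LEP in round treated libraries, always is. The other 3 were ADIPOQ in sirloin control replicate 1, at 0.959 CPM with at most 0.166 CPM in the other sirloin controls, PLIN1 in round treated replicate 4, at 3.57 CPM with at most 1.86 CPM in the other treated round libraries, and LEP in round treated replicate 2, at 0.0823 CPM or 4 counts. PLIN1 in round treated replicate 4 belongs to the same calf as the sirloin library that stood apart.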

How the results depend on the processing

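No member was called in the diet comparisons or the interaction without sirloin treated replicate 4, under any alternative that was run. FABP4 between the muscles was called only with the calf block and without treated calf 4. Low counts limit ADIPOQ, CIDEC, CEBPA and LEP outside sirloin treated replicate 4, where a few counts set the level, and 3 or 4 calves a group limit the rest. The cause of the shifts below was not tested.

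Of all genes, round muscle had 4 calls, and DESeq2 gave 45, limma-voom 1, log2(TPM + 0.1) 1, log2(TPM + 1) 0 and single libraries left out 0 to 3. Sirloin without treated replicate 4 had 0 calls, and DESeq2 gave 16, limma-voom 1, log2(TPM + 0.1) 3, log2(TPM + 1) 1 and libraries left out 0 to 1. Sirloin with all libraries had 2, and DESeq2 gave 13, limma-voom 0 and libraries left out 0 to 1. Round against sirloin had 19, and DESeq2 gave 151 and calves left out 8 to 24. At 16 times instead of 8 times, 44 genes stood apart in sirloin treated replicate 4.

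With the replicate number as a block, round muscle had 2 calls, sirloin with all libraries 0, round against sirloin 322 with 1 member, and the interaction 1. With the block on all 16 libraries, an alternative chosen after seeing the data like the threshold of 16 times, these were 109 and 1. Values that turned sign under a block were SCD at -0.30 in sirloin without treated replicate 4 and -0.048 between muscles, CEBPA at -0.054 in sirloin with all libraries, and ADIPOQ in the interaction, from -0.019 to 0.69. In sirloin with all libraries the block also brought ADIPOQ to 0.26, FABP4 to 0.67, PLIN1 to 0.55 and PPARG to 0.69. In the diet fits, unlike between muscles, this block joined different calves by equal replicate numbers, which did not pair across diets. On all 16 libraries with the block, CEBPA was at 0.18, ADIPOQ 0.12, PLIN1 0.19 and FASN 0.012 between the muscles. The block changed no other call of a member.

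Without the block, all 16 libraries turned 6 members towards sirloin: PPARG 0.96, CEBPA 1.26, FABP4 3.20, ADIPOQ 4.26, PLIN1 2.38 and FASN 0.057. In limma-voom SCD turned to -0.048 in sirloin and -0.044 between muscles. Leaving out libraries gave ranges that crossed 0 in round muscle for PPARG (-0.0067 to 0.42), CEBPA (-0.82 to 0.012), PLIN1 (-0.49 to 0.0026) and LPL (-0.12 to 0.83), and for SCD in sirloin without treated replicate 4 (-0.59 to 0.50). With all sirloin libraries the ranges were -0.31 to 3.02 for PPARG, -1.49 to 2.45 for CEBPA, -0.50 to 8.54 for FABP4, -1.75 to 10.86 for ADIPOQ, -0.59 to 5.62 for PLIN1, -5.17 to 8.61 for CIDEC and -0.51 to 0.17 for LPL. Between muscles they were -0.14 to 0.46 for LPL, -0.31 to 0.28 for SCD and -0.13 to 0.086 for FASN.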

Other observations

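Some genes outside the lists were also at least 8 times higher in sirloin treated replicate 4 than in each other library, and the following were chosen after their values were seen. CKB, the brain-type creatine kinase, was at 368 CPM there and at most 1.47 CPM elsewhere. KLB, the co-receptor for FGF21, was at 95.9 against at most 0.318 CPM. ADIRF, a small adipogenesis-associated protein, was at 208 against 18.4 CPM, and MGST1, a microsomal glutathione transferase, at 166 against 15.8 CPM. FGL1, a fibrinogen-like protein, was at 165 against 15.97 CPM. Among the correlated genes, PDE3B was at 69.0 against 1.84 CPM and PRLR at 37.9 against 0.304 CPM.

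CYP4B1, a fatty acid hydroxylase in the secreted and surface list, was not the highest in that library, at 1.45 CPM and rank 6 of 16. This was 10.8 times the median of the other 7 sirloin libraries, 0.134 CPM, and below their highest value of 4.64 CPM. In round muscle with all libraries the diet difference of CYP4B1 did not pass the threshold in edgeR. It passed when round treated replicate 4, which held 0 counts, was left out (log2 fold change 8.503 ± 0.83, edgeR adjusted p = 0.0116). In sirloin without treated replicate 4 it passed in DESeq2 (5.93 ± 0.80, DESeq2 adjusted p = 4.94e-10) and not in edgeR.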
